A study of Mus musculus with 6 samples.

Results

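Deubiquitinases are proteases that take ubiquitin off proteins, and so act against the ubiquitin ligases that mark proteins for the proteasome or change their signalling. The USP family is the largest, the OTU family often cuts only certain ubiquitin chain types, and the UCH family trims small ubiquitin adducts. In skeletal muscle, which wastes largely through ubiquitin ligases and the proteasome when it is not used, several of these enzymes are known for roles in atrophy, in the clock and in NF-kappaB signalling. The genes described here are those whose symbol begins with Usp and a digit, Otud, Otub or Uchl, together with Cyld and Tnfaip3. The rule took 70 of the 19938 genes measured. Of these, 68 belong to deubiquitinase families. The other 2 share only the name: Usp6nl encodes a GTPase-activating protein for Rab proteins, and Usp46os2 is an opposite-strand transcript near Usp46.

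The 6 arrays, all of soleus from male C57BL/6 mice aged 8 weeks, formed 3 groups of 2: hindlimb suspension with electroacupuncture, hindlimb suspension alone, and control. The soleus, a calf muscle used in standing, is made largely of slow fibres. Suspension takes the weight off the hind limbs, and electroacupuncture passes current through acupuncture needles. The labels give no duration of suspension, no stimulation settings and no time of day, and leave unsaid if duplicate arrays stand for different animals, so p-values measure the spread between arrays, which may be technical.

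Values are log2 signals, so 1 unit is a 2-fold difference. Array medians ran from 4.13 to 4.19, and the number of arrays limits the precision. All 8 slow muscle markers and all 8 general muscle fibre markers lay above background, taken as the 95th percentile of 1027 olfactory receptor genes (3.50). Adipocyte markers set the control arrays apart, with a mean log2 signal of 5.91 on control array 1 and 7.72 on control array 2. Of the 70 genes, 58 had a mean above background, and all 70 were tested with no filter on signal. The 12 at or below background were Otud6a, Otud7a, Usp9y, Usp17la, Usp17lb, Usp17lc, Usp26, Usp29, Usp35, Usp44, Usp50 and Usp51. The Usp17-like genes are near-identical repeats, and their signals cannot be assigned with certainty to 1 copy. The related genes Usp9x and Usp9y, on the X and Y chromosomes, read apart, with mean signals of 7.83 and 1.89. In a bulk muscle sample, fewer cells of a type and less RNA per cell cannot be told apart.

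Otud1 encodes an OTU deubiquitinase that cuts lysine-63-linked ubiquitin chains, and it was the gene with the largest difference among the 70. Its signal was 5.37 and 5.58 on the suspension arrays, against 7.12 and 7.66 on the control arrays. The 2 groups were apart by more than either pair of arrays. Otud1 fell by 1.92 ± 0.21 log2 (SE), which is 3.79-fold (adjusted p = 0.00849 in limma). On the arrays of suspension with electroacupuncture the signal was 5.13 and 5.57, which overlapped suspension alone and lay below both control arrays. Against control that group was lower by 4.14-fold, with a log2 difference of -2.05 ± 0.21 (adjusted p = 0.00784). The 2 differences share the control arrays and are no independent evidence of each other. Without control array 2, the one with high adipocyte markers, the suspension difference was -1.65. The calls rested on duplicates. Without suspension array 1 the suspension difference was -1.82. Without array 1 or array 2 of the electroacupuncture group the difference of that group was -1.83 and -2.27. These fits leave 1 array in a group. Without suspension array 1 the suspension call of Otud1 was lost. Without either electroacupuncture array the call of that group was lost. Most of the genes called over the whole array lost their calls there too. Otud1 also lost both calls with every cluster tested by itself and no array left out (adjusted p = 0.126 and 0.13 in limma).

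Cell type and fibre markers moved with the same comparisons. In suspension minus control, where 51.1% of all genes lay above 0, 7 of 8 slow muscle markers lay below 0, with a median of -0.50. The 8 general fibre markers went both ways, 5 above and 3 below 0, with a median of 0.20. Past the threshold, against 1.05% of all genes, were the fast myosin gene Myh2, which fell by 2.00 ± 0.29, and the calcium channel gene Ryr1, which rose by 0.89 ± 0.12. The 8 fibroblast and tendon markers had a median of -0.62, with 6 below and 2 above 0. The tendon gene Tnmd, the 1 of them past the threshold, fell by 1.94 ± 0.15. All 5 adipocyte markers lay below 0, with a median of -0.69 and none past the threshold. That direction rested on control array 2. The mean of these 5 was 6.20 and 5.97 on suspension, above the 5.91 of control array 1 and below the 7.72 of control array 2. All 7 endothelial markers were lower with electroacupuncture than with suspension alone, where 48.4% of all genes lay above 0. Of these 7, 3 had an unadjusted p under 0.05 in limma, against 3.07% of all genes (1.5% lower), and none passed the adjusted threshold. In suspension with electroacupuncture minus control, Myl3, Myh2, Tnmd, Scx and Kdr passed the threshold, all lower, against 1.03% of all genes (0.587% lower). There all 8 slow muscle markers lay below 0. Of the 7 endothelial markers, 6 lay below and 1 above 0, and of the 8 fibroblast and tendon markers, 6 below and 2 above. The part of these markers in the values of Otud1, Usp53 and Usp54 was not tested.

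The bases upstream of Otud1 and of Usp2 are shown because Otud1 was the gene that differed most from control, and Usp2 had the smallest unadjusted p of the set between suspension with electroacupuncture and suspension alone. Both are the 250 bases before an annotated start in RefSeq (build GRCm38.p6, plus strand, 5′ to 3′). They are chr2:19657481-19657730 for Otud1 and chr9:44084670-44084919 for Usp2. The Otud1 window ends at the annotated start of the gene, and the Usp2 window at a start inside it. Capitals mark the letters CACGTG (E-box, bound by clock factors among others) and GTAAACA (core bound by FoxO factors).
Otud1: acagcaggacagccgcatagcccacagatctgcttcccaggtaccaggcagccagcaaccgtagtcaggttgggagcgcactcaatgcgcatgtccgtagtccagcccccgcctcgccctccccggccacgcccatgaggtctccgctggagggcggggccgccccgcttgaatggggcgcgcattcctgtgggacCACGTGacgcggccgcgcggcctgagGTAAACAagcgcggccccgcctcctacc
Usp2: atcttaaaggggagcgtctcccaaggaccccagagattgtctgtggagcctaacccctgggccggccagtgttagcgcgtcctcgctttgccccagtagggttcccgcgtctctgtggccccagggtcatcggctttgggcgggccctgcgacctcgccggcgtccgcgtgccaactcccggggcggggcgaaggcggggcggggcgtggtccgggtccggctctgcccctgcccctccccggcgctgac

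The motifs were chosen after the Otud1 window had been read, and both strands were searched. In Otud1 the CACGTG match begins 54 bases and the GTAAACA match 28 bases before the start. CACGTG was found upstream of 7 of the 55 set genes with a window (Otud1, Otud3, Tnfaip3, Usp4, Usp6nl, Usp16 and Usp31), against 6.02% of all 32851 windows in the table. GTAAACA was found upstream of 1 of the 55, Otud1, against 3.17% of all windows. The D-box letters TTANGTAA were found upstream of 0 of the 55, against 2.06%, and the Usp2 window held none of the 3 motifs. The set counts are of genes and the percentages of windows, so they are unlike measures and no excess is read from them. A match describes the letters in these windows and is not a measured binding site.

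The comparison of suspension with control addressed unloading. Otud1 was 1 of 70 genes past adjusted p under 0.05, where 1.05% of all 19938 genes passed (0.537% higher and 0.512% lower), so the share in the set lay near the background. At an unadjusted p under 0.05 there were 7 of 70, against 12.7% of all genes (6.63% higher and 6.09% lower). These were Otud1, Uchl1, Usp18 and Usp28 with lower and Usp53, Usp3 and Uchl5 with higher signals on the suspension arrays. Differences of the 70 genes had a median of 0.09, against 0.01 over all genes, and 43 of 70 were above 0, against 51.1% of all genes. The 2 groups did not overlap on 31 of 70 genes, against 39.8% of all genes. On 23 of the 70 both suspension arrays lay above both control arrays, against 21.3% of all genes, and on 8 both lay below, against 18.5%. The lean upward was small and depended on 1 array, with a set median of 0.01 without control array 2. For 40 of 70 genes the 95% interval of the difference lay within 1.5-fold either way, and this held for 52.9% of all genes.

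**Figure D1:**
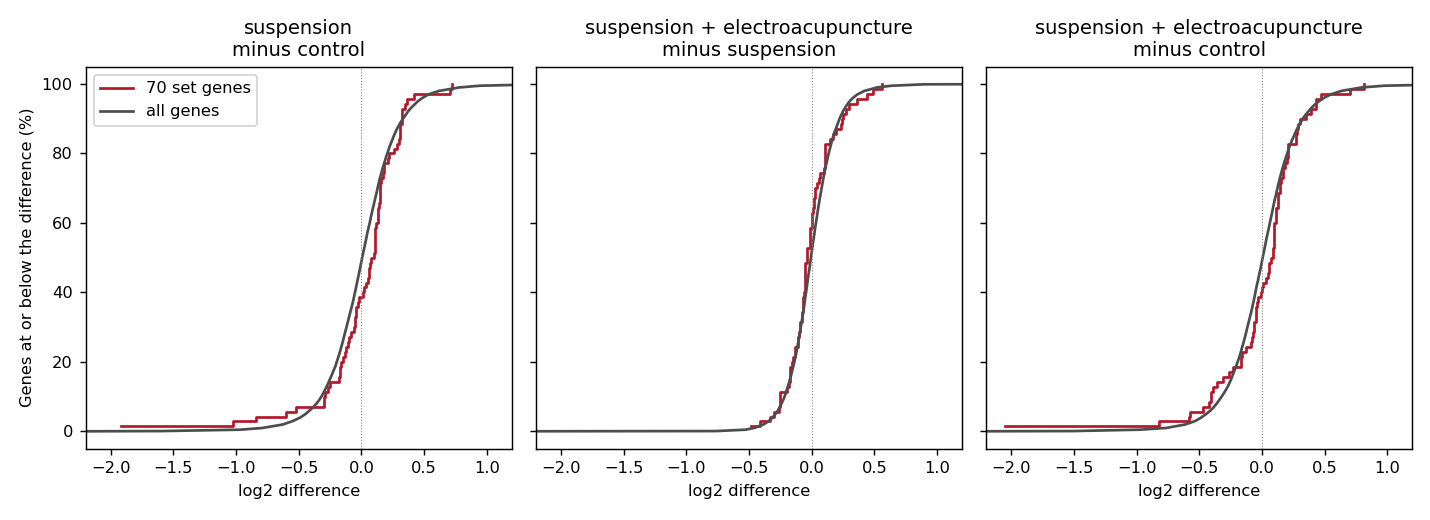
Cumulative share of genes (vertical axis, percent) at or below each log2 difference (horizontal axis) for the 70 set genes (red steps) and all 19938 genes (grey line) in the 3 comparisons. In the comparisons with control the red steps begin at Otud1, at -1.92 (suspension) and -2.05 (suspension with electroacupuncture). At 0 they lie below the grey line there, with 43 and 42 of 70 genes above 0, against 51.1% and 51% of all genes. In suspension with electroacupuncture minus suspension they lie above it, with 28 of 70 above 0, against 48.4%.

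**Figure D2:**
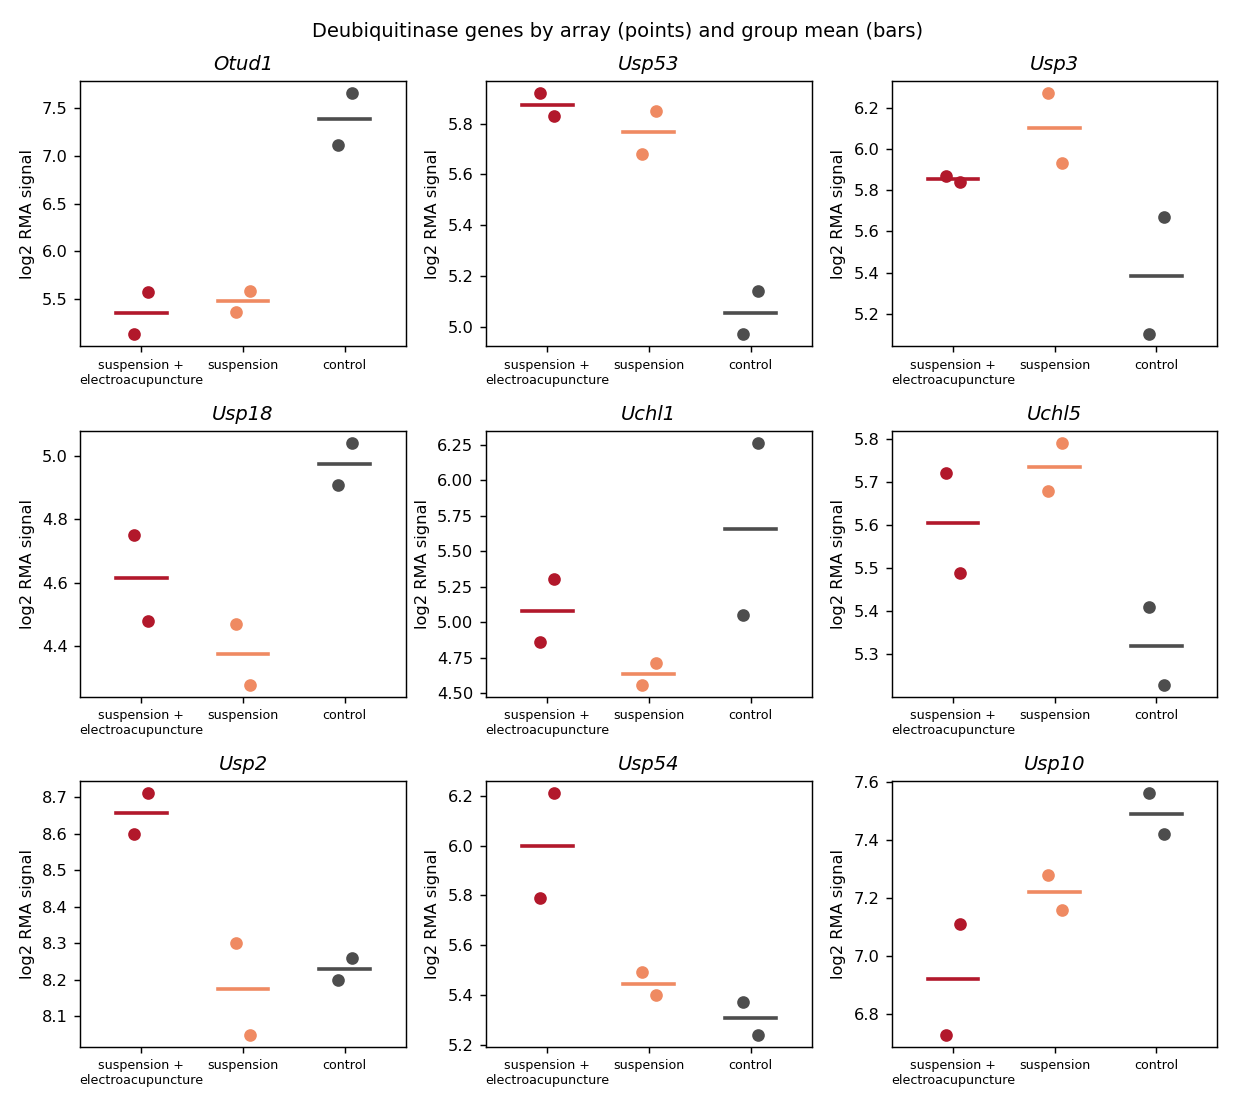
Log2 RMA signal (vertical axes, each with its own range) of 9 genes on each array (points) with group means (bars), for suspension with electroacupuncture, suspension and control. Otud1 lies between 5.13 and 5.58 on the 4 suspended arrays and at 7.12 and 7.66 on the control arrays, while Usp2 and Usp54 are highest on both electroacupuncture arrays.

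Usp53 belongs to the USP homologues long described as inactive, and its product lies at tight junctions. It had signals of 5.68 and 5.85 on the suspension arrays, against 4.97 and 5.14 on the control arrays. The difference was 0.71 ± 0.15 log2 (adjusted p = 0.0711 in limma). On the arrays of suspension with electroacupuncture Usp53 read 5.92 and 5.83, above both control arrays and overlapping suspension alone. Against control it rose by 0.81 ± 0.15 log2 or 1.76-fold (adjusted p = 0.0404). This call was lost in several settings, among them no mean-variance trend (adjusted p = 0.0705) and array weights (adjusted p = 0.0507). It was also lost on leaving out control array 1, either suspension array or either electroacupuncture array. The difference was 0.73 without control array 1, and 0.77 and 0.86 without electroacupuncture arrays 1 and 2. Leaving out an electroacupuncture array also removed most calls over all genes.

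Its relative Usp54 had 5.79 and 6.21 on the electroacupuncture arrays, 5.49 and 5.40 on the suspension arrays and 5.37 and 5.24 on the control arrays. It was highest on both electroacupuncture arrays, and so was its second transcript cluster, with 4.73 and 4.93 on the electroacupuncture arrays, 4.47 and 4.51 on the suspension arrays and 4.43 and 4.54 on the control arrays. The difference of Usp54 was 0.56 ± 0.17 log2 from suspension (unadjusted p = 0.00962, adjusted p of 1) and 0.70 ± 0.17 from control (adjusted p = 0.114), and neither passed. The difference from suspension was 0.77 without electroacupuncture array 1 and 0.35 without array 2. Usp39, a part of the spliceosome, was the third measured gene above background in the class long described as inactive. It differed from control by 0.28 ± 0.18 in suspension and 0.35 ± 0.18 in the electroacupuncture group (adjusted p = 0.586 and 0.484).

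Among deubiquitinases of the set that recycle ubiquitin or sit on the proteasome, none of 6 measured genes passed in any comparison. Uchl5, a proteasome-bound enzyme, had 5.68 and 5.79 on the suspension arrays, against 5.41 and 5.23 on the control arrays, a difference of 0.42 ± 0.15 (adjusted p = 0.288). The other proteasome-bound enzyme gene among these 6, Usp14, had 6.71 and 7.14 on suspension, against 6.99 and 7.22 on control. These overlapped, and the difference was -0.18 with a 95% interval from -0.56 to 0.20. Usp5, which takes apart free ubiquitin chains, differed by -0.04 ± 0.14, and its relative Usp13 by 0.32 ± 0.15 (adjusted p = 0.445). Uchl3 differed by -0.17 ± 0.15.

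Uchl1, an enzyme best known from neurons, had 4.56 and 4.71 on the suspension arrays, against 5.05 and 6.26 on the control arrays. The groups did not overlap, but the control arrays lay 1.21 apart, the widest gap between control duplicates among the 70 genes. The difference was -1.02 ± 0.34 (adjusted p = 0.233). It was -1.62 without control array 1 (adjusted p = 0.0216) and -0.42 without control array 2 (adjusted p = 0.367), so its size and its call rested on which control array was used. The electroacupuncture arrays read 4.86 and 5.30. The mean log2 signal of 7 neuron and Schwann cell markers, of which S100b, Nefl and Nefm were at or below background, was 3.63 to 3.67 on the electroacupuncture arrays, 3.67 on both suspension arrays, and 3.86 and 3.71 on control arrays 1 and 2. The control array with the higher Uchl1 was thus the one with the lower mean of these markers and the higher mean of the 5 adipocyte markers, and their part in the Uchl1 value was not tested.

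Of the 4 genes grouped under muscle, the clock or the sarcomere, none passed in suspension against control. The group was Usp2, Usp19, Usp25 and its paralogue Usp28, for which no muscle role is claimed here. Usp19, known for its induction in wasting muscle, had 7.86 and 7.73 on suspension, against 7.63 and 7.62 on control, a difference of 0.17 with a 95% interval from -0.12 to 0.46. Usp25, whose muscle isoform binds sarcomeric proteins, differed by 0.26 ± 0.13 (adjusted p = 0.465). Its paralogue Usp28, a stabiliser of MYC, had 6.79 on both suspension arrays, against 7.16 and 7.46 on control, a difference of -0.52 ± 0.21 (adjusted p = 0.343).

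Among 15 genes of NF-kappaB, TNF and innate immune signalling, Otud1 was the 1 that passed against control in each of the suspended groups, where 1.05% (suspension) and 1.03% (with electroacupuncture) of all genes passed. Tnfaip3 encodes A20, which restrains NF-kappaB, and its signal was 4.40 and 4.46 on the electroacupuncture arrays, 4.30 and 4.34 on suspension, and 3.99 and 4.01 on control. The 3 groups did not overlap, and the differences from control were 0.43 ± 0.15 (adjusted p = 0.256) with electroacupuncture and 0.32 ± 0.15 (adjusted p = 0.418) in suspension alone. Macrophage markers, all 10 above background, had mean log2 signals of 6.13 and 5.83 on the electroacupuncture arrays, 5.95 and 5.28 on suspension, and 5.26 and 5.60 on control, and their part in the Tnfaip3 values was not tested. Cyld, which cuts lysine-63-linked and linear chains, had 6.43 and 6.33 on the electroacupuncture arrays, 6.00 and 6.16 on suspension and 6.24 and 5.99 on control, a difference of 0.30 ± 0.15 between the first 2 groups (unadjusted p = 0.0731). Of 19 NF-kappaB pathway and target genes none passed in any comparison, with medians of 0.08 in suspension and 0.07 in the electroacupuncture group against control.

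Usp18, which removes the ubiquitin-like modifier ISG15 and is induced by interferon, had 4.47 and 4.28 on suspension, against 4.91 and 5.04 on control. Both suspension arrays lay below both control arrays, with a difference of -0.60 ± 0.17 (adjusted p = 0.153). The electroacupuncture arrays read 4.75 and 4.48, also below control. Of 17 measured interferon-induced genes none passed in either comparison with control, and their median in suspension minus control was -0.01. Rtp4 (-0.69 ± 0.19, adjusted p = 0.156) and Bst2 (-0.45 ± 0.18, adjusted p = 0.342) were the 2 of 17 with an unadjusted p under 0.05, a share near the 12.7% of all genes. Within the same role group, the TGF-beta receptor deubiquitinases Usp4 and Usp15 differed by 0.30 ± 0.14 and 0.11 ± 0.20 in suspension minus control, Otud4 by 0.16 ± 0.12, Otud5 by 0.04 ± 0.15, Otud7b by 0.13 ± 0.14 and Usp38 by -0.11 ± 0.14.

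The 25 genes of chromatin, DNA repair, cell cycle and the remaining USP enzymes had a median of 0.12 in suspension minus control, and 20 of them were above 0, against 51.1% of all genes. Of the 25, 6 were at or below background (Usp26, Usp29, Usp35, Usp44, Usp51 and Otud6a). None passed. Usp3, which takes ubiquitin off histones, had 6.27 and 5.93 on suspension, against 5.10 and 5.67 on control, a difference of 0.72 ± 0.20 (adjusted p = 0.166). It was 0.43 without control array 1 (adjusted p = 0.356) and 1.00 without control array 2 (adjusted p = 0.0493). The nucleolar enzyme gene Usp36 differed by 0.35 ± 0.16 (adjusted p = 0.43). Differences within 0.25 of 0 were seen for Usp7, an enzyme of the p53 pathway (0.11 ± 0.15), the SAGA subunit gene Usp22 (0.10 ± 0.17), Usp1, of the Fanconi anaemia pathway (-0.17 ± 0.19), and Otub1, which blocks the E2 enzyme UBC13 (0.15 ± 0.18).

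In the group of endosome, membrane and mitochondrial enzymes none of 11 passed. Usp10, which stabilises p53 and binds the stress granule protein G3BP1, had 6.73 and 7.11 on the electroacupuncture arrays, 7.28 and 7.16 on suspension, and 7.56 and 7.42 on control. The 3 groups did not overlap, and the difference of the electroacupuncture group from control was -0.57 ± 0.16 (adjusted p = 0.159), against -0.27 ± 0.16 (adjusted p = 0.542) for suspension alone. Both used the same control arrays. Usp8, the endosomal enzyme, differed from control by 0.02 ± 0.15 in suspension, Usp30, of the outer mitochondrial membrane, by -0.04 ± 0.19, Usp9x by 0.11 ± 0.15, Usp20 by 0.11 ± 0.16 and the UAF1-activated pair Usp12 and Usp46 by 0.18 ± 0.17 and 0.31 ± 0.16.

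**Figure D3:**
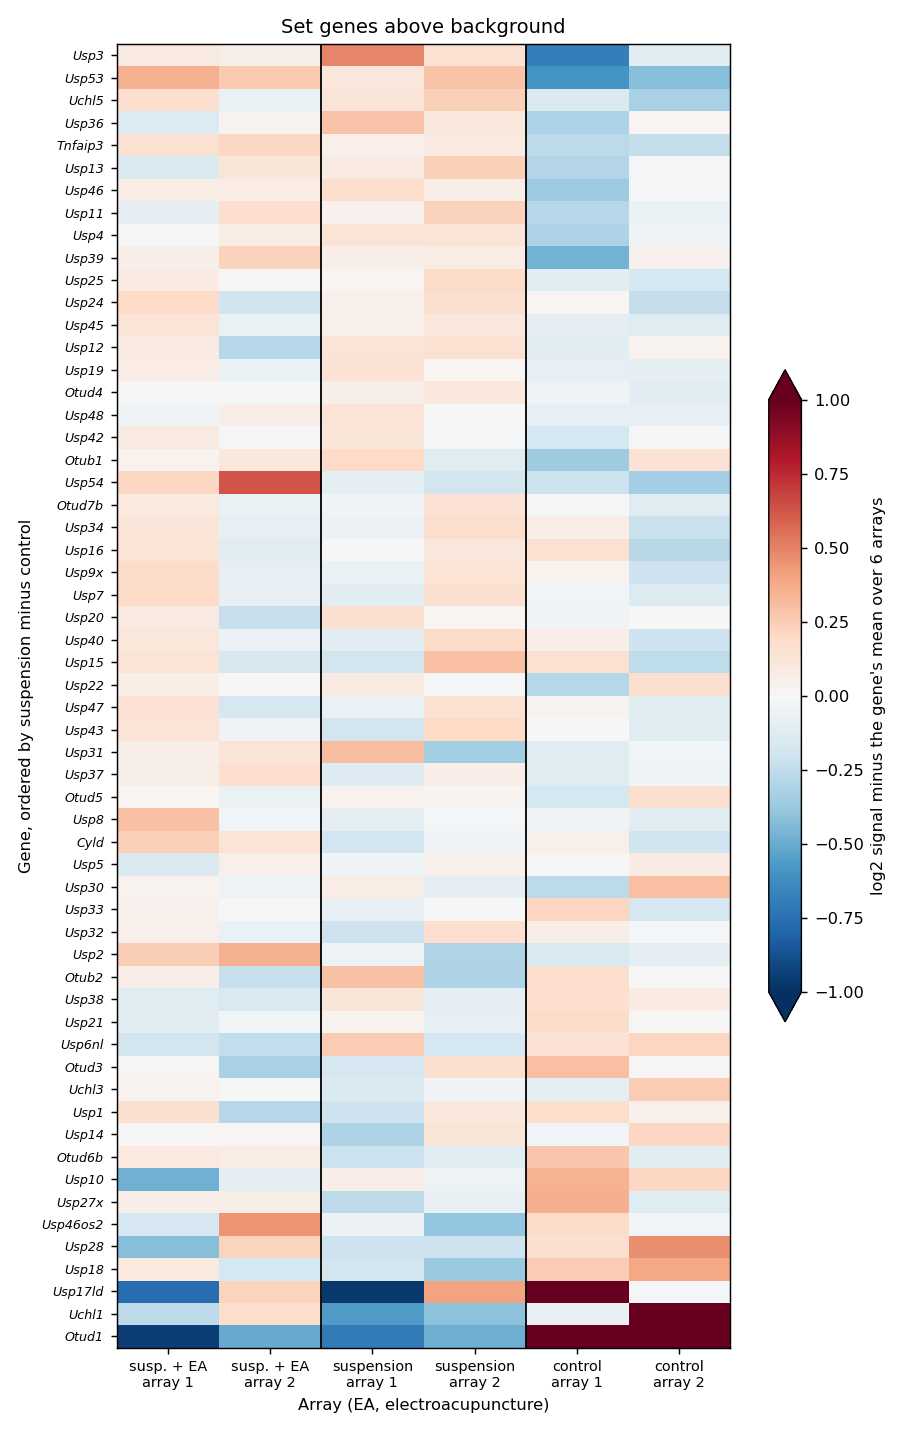
Log2 signal of the 58 set genes above background on the 6 arrays (columns), as the difference from each gene's mean over all arrays, with red higher and blue lower and the scale ending at 1 in either direction. Rows run from the highest suspension minus control difference (Usp3, 0.72) to the lowest (Otud1, -1.92), and apart from Otud1 no gene has a suspension minus control difference below -1.02 (Uchl1).

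The comparison of suspension with electroacupuncture against suspension alone addressed the treatment. None of the 70 genes passed adjusted p under 0.05 in limma, and 0% of all genes did. At an unadjusted p under 0.05 there were 2 of 70, Usp2 and Usp54, both higher with electroacupuncture, against 3.07% of all genes (1.56% higher and 1.5% lower). The median difference was -0.04, against -0.01 over all genes, and 0.04 without electroacupuncture array 2. Of the 70 differences, 58 lay within 0.25 of 0. Over all genes the 7th percentile of the difference was -0.25 and the 92nd was 0.25, so most genes lay within that range too. The 2 groups did not overlap on 24 of 70 genes, 10 higher and 14 lower, against 32.6% of all genes (15.4% higher and 17.1% lower). For 46 of 70 genes the 95% interval lay within 1.5-fold either way, against 66.3% of all genes. Otud1 differed by -0.13 with an interval from -0.61 to 0.36, and Usp53 by 0.11 with an interval from -0.22 to 0.44.

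Usp2 encodes a deubiquitinase whose transcript is known to follow the circadian clock in many tissues. Its signal was 8.60 and 8.71 on the electroacupuncture arrays, 8.30 and 8.05 on the suspension arrays and 8.20 and 8.26 on the control arrays. Both electroacupuncture arrays lay above the other 4. The difference from suspension was 0.49 ± 0.14 log2, 1.40-fold, with an unadjusted p of 0.00607 and an adjusted p of 1, and from control 0.43 ± 0.14 (adjusted p = 0.216). Suspension alone lay -0.06 ± 0.14 from control.

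In suspension against control 1 of 17 core clock and output genes passed, against 1.05% of all genes. This was the clock gene Rora, which rose by 0.84 ± 0.13. Of the 17 genes, 16 lay above 0 in that comparison, against 51.1% of all genes. An unadjusted p under 0.05 in limma was seen for 7 of the 17, against 12.7% of all genes. None passed between the electroacupuncture group and suspension, and 10 had an unadjusted p under 0.05, against 3.07% of all genes. Against control, where 0.446% of all genes passed higher and 0.587% lower, 3 rose in the electroacupuncture group (Dbp by 1.51 ± 0.17, Per3 by 1.49 ± 0.17 and Tef by 1.03 ± 0.17) and 2 fell (Arntl at -1.05 ± 0.14 and Nfil3 at -1.17 ± 0.18). The D-box activator gene Dbp read 8.31 and 8.34 on the electroacupuncture arrays, 7.11 and 6.91 on suspension and 6.60 and 7.04 on control. The clock activator gene Arntl read 5.62 and 5.61 on the electroacupuncture arrays, 6.68 and 6.66 on suspension and 6.79 and 6.53 on control. Dbp was thus high and Arntl low on the arrays where Usp2 was high. The part of the clock in the Usp2 value was not tested.

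**Figure D4:**
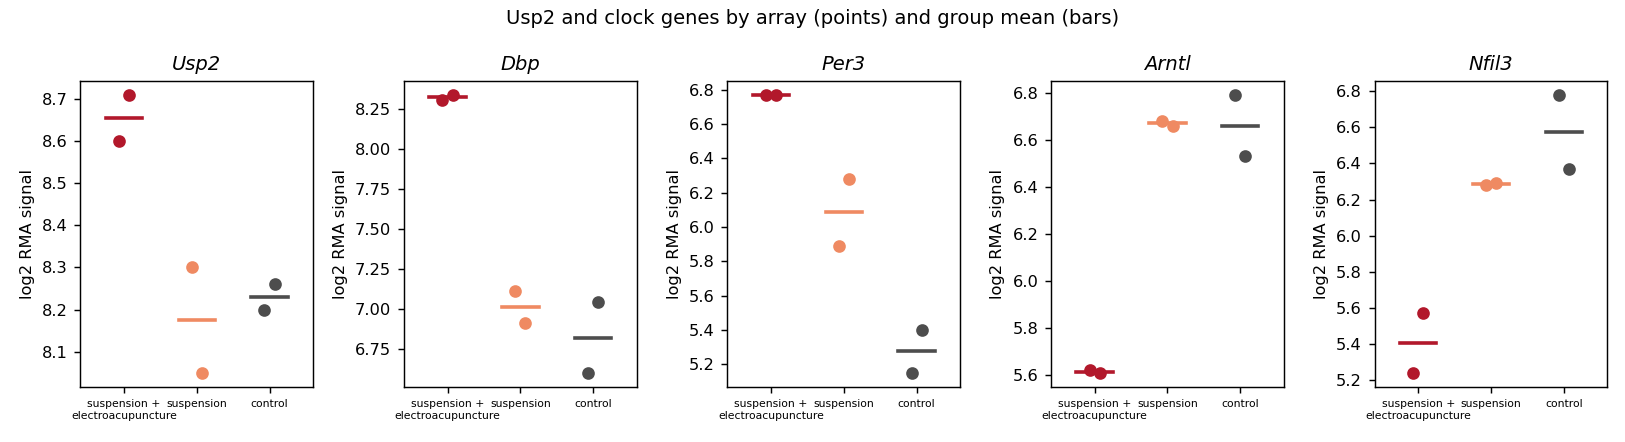
Log2 RMA signal (vertical axes, each with its own range) of Usp2 and of the clock genes Dbp, Per3, Arntl and Nfil3 on each array (points) with group means (bars). Usp2, Dbp and Per3 are highest and Arntl and Nfil3 lowest on both arrays of suspension with electroacupuncture.

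In suspension with electroacupuncture against control, 2 of 70 genes passed, Otud1 lower and Usp53 higher, against 1.03% of all genes (0.446% higher and 0.587% lower). At an unadjusted p under 0.05 there were 8 of 70, against 12.8% of all genes (6.47% higher and 6.34% lower): Otud1, Usp10 and Usp9y lower, and Usp53, Usp54, Usp2, Tnfaip3 and Usp3 higher, with Usp9y below background. The median of the 70 differences was 0.08, against 0.01 over all genes, and 0 without electroacupuncture array 1. The 2 groups did not overlap on 31 of 70 genes, 21 higher and 10 lower, against 41.8% of all genes (21.8% higher and 20% lower). For 39 of 70 genes the 95% interval lay within 1.5-fold either way, against 53.7% of all genes. Usp3 lay 0.47 ± 0.20 from control (adjusted p = 0.382), with 5.87 and 5.84 on the electroacupuncture arrays. That difference was 0.19 without control array 1 and 0.75 without control array 2.

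The rest of the ubiquitin system was counted from lists. Of 26 genes of other deubiquitinase families and their relatives (JAMM, Josephin, MINDY, further OTU and UCH members, and related proteins not known mainly as deubiquitinases, such as Pan2, Uspl1, Eif3f and Eif3h) none passed in any comparison, with a median of -0.03 in suspension minus control. The nearest was Otulin, an OTU enzyme that cuts linear ubiquitin chains, with 6.01 and 5.83 on suspension, against 6.65 and 6.95 on control (-0.88 ± 0.18, adjusted p = 0.0733). On the electroacupuncture arrays it read 5.72 and 6.16, below both control arrays. In suspension minus control 7 of the 26 had an unadjusted p under 0.05 in limma, against 12.7% of all genes. Besides Otulin, these were Josd1 (-0.67 ± 0.22), Mindy2 (-0.48 ± 0.15), Josd2 (-0.39 ± 0.16), Zranb1 (0.57 ± 0.21), Mindy1 (0.48 ± 0.16) and Eif3h (0.30 ± 0.12). In the electroacupuncture group minus control there were 6 of 26, against 12.8% of all genes.

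None of 34 E1 and E2 enzyme genes passed in any comparison, with a median of -0.03 in suspension minus control. At an unadjusted p under 0.05 in limma there were 7 of 34 in suspension minus control, against 12.7% of all genes. The E1 subunit gene Uba3, which activates NEDD8, differed by -0.50 ± 0.14 (adjusted p = 0.166), the UBC13 gene Ube2n by -0.59 ± 0.18 (adjusted p = 0.207) and Ube2h by -0.41 ± 0.13 (adjusted p = 0.212). Ube2f, an E2 enzyme for NEDD8, was the lowest of the list in the electroacupuncture group minus suspension (-0.54 ± 0.15, unadjusted p = 0.00534, adjusted p of 1). Of 23 cofactors and scaffolds of deubiquitinases none passed, and the median in suspension minus control was 0.10. Among them the endosomal sorting gene Hgs differed by 0.58 ± 0.17 (adjusted p = 0.166), and Spata2, which links CYLD to the linear ubiquitin ligase, by -0.40 ± 0.14 (adjusted p = 0.262).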

How the data were processed

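The authors deposited a log2 signal for each of 35556 transcript clusters on Affymetrix mouse gene arrays, computed with RMA in Affymetrix Expression Console, per the submitters' processing notes. The version and genome build are not given in the sources used here. Clusters with 1 symbol (21789) were kept, and the cluster with the highest mean stood for each symbol, which left 19938 genes. Clusters of several symbols were left out, among them 3 with a symbol of the set (Usp49, Uchl4 and Usp17le). All genes and all 6 arrays entered 1 fit with limma 3.58.1 in R 4.3.3, with a mean-variance trend. P-values were adjusted by Benjamini-Hochberg over all genes, with a threshold of 0.05. Errors are limma's standard errors. The procedure was tested on simulated data. Named genes were those past the threshold, per comparison the 10 above background lowest in p, and listed members with known roles. Genes outside the set came from fixed lists. Usp9y, Otud3, Usp16 and Usp31 and the genes below background were named after their values were seen. The members and lists were chosen with earlier results of these data known. Alternatives tried were no trend, a robust prior, weights per array, a signal filter, 3 normalizations, other uses of clusters, the compared groups alone, a replicate block, other thresholds and each array left out.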

Additional observations from a re-analysis of the deposited data

How the results depend on the processing

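For suspension minus control the count of set genes past the threshold was 1. It was 2 with genes at or above the median signal and at adjusted p under 0.1 (Otud1 and Usp53 both times), 0 with every cluster tested by itself, and 0 to 2 with 1 array left out. It stayed at 1 in the other settings. For suspension with electroacupuncture minus control the count was 2. It was 1 without the mean-variance trend, with array weights, with the compared groups alone, with the replicate block and with a fold threshold of 1.2, in each case Otud1. It was 0 with every cluster tested by itself and 0 to 2 with 1 array left out. For suspension with electroacupuncture minus suspension it was 0 in every setting run. With every cluster tested by itself Otud1 had adjusted p-values of 0.126 against control in suspension and 0.13 with electroacupuncture. The replicate number was no known pairing: across genes, the difference between replicates 1 and 2 correlated at -0.16 between suspension and control, 0.02 between the electroacupuncture group and control and -0.02 between the electroacupuncture group and suspension. With the block, Usp53 had an adjusted p of 0.0824 in the electroacupuncture group against control, and Otud1 had 0.0062. Over all genes the counts were 209, 0 and 206, with ranges over the settings of 1 to 482 for suspension minus control, 0 to 4 for the electroacupuncture group minus suspension and 1 to 399 for the electroacupuncture group minus control. None of 43 named genes reversed a called direction. In the 3 comparisons 16, 19 and 18 of them changed sign in at least 1 setting without being called. The cause of these changes was not tested. Signals at background and 2 arrays a group limit what could be seen.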
